A study of Mus musculus with 6 samples.

Results

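The granins and the machinery of prohormone processing are represented here by 10 genes, taken by their symbols from the deposited count table of 55401 genes. They are 7 genes of granins and granin-like proteins (Vgf, Chga, Chgb, Scg2, Scg3, Scg5 and Pcsk1n) and 3 genes of processing enzymes (Pcsk1, Pcsk2 and Cpe). All 10 were among the 19687 genes that passed the filter on low counts. The set was chosen with the values of this same comparison known, Vgf being among the genes with the largest decreases, so the differences between genotypes given below describe these libraries and are no independent test of the set. Transcripts were measured by bulk RNA sequencing of inner ear from mice labelled Pou3f4y/- (Pou3f4 KO, n = 3 libraries) and from wild-type mice (WT, n = 3 libraries). By its labels the material is inner ear, and cell types were not separated. Background strain, age, sex, the part of Pou3f4 that the allele lacks and whether each library is a separate animal are not given in the sources used, so that p-values measure only the spread between these samples. Pou3f4 is an X-linked transcription factor of the mesenchyme around the ear, and the series asked about inner ear pigmentation in the mutant.

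Granins are acidic secretory proteins that neurons and endocrine cells pack into dense-core vesicles, the organelles from which peptides are released on demand. In these vesicles the convertases encoded by Pcsk1 and Pcsk2 cut prohormones behind basic residues, and carboxypeptidase E, encoded by Cpe, trims the exposed basic residues off the new ends. Scg5 encodes the chaperone and inhibitor of the Pcsk2 convertase, Pcsk1n encodes proSAAS, an inhibitor of the Pcsk1 convertase, and Scg3 helps to bring granins to the vesicle membrane. In the cochlea, peptides such as CGRP are known from efferent nerve fibres.

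Several granin genes are known for a cyclic AMP response element (CRE, TGACGTCA, the same on both strands) close to the start of transcription. Promoter windows of RefSeq on build GRCm38.p6, the build the submitters name as mm10, were found for 8 of the 10 genes, and Vgf and Cpe had none. The whole element stood within the 250 bases before the start in 3 of the 8 windows (Chgb, Scg2 and Pcsk1), and in 1.55% of all 32851 windows. Its first 5 letters, TGACG on either strand, which the whole element contains, stood in 7 of the 8 windows, all but that of Pcsk1n, and in 17.8% of all windows. The octamer ATGCAAAT, searched on both strands because POU-domain factors bind it, stood in 0 of the 8 and in 1.6% of all. The 120 bases before the start are shown for the 3 genes with the whole element and for Chga, whose counts ran beside those of Chgb. Capitals mark the element or its first 5 letters on either strand. The windows are chr2:132781522-132781641 (plus strand) for Chgb, chr1:79440027-79440146 (minus strand) for Scg2, chr13:75089737-75089856 (plus strand) for Pcsk1 and chr12:102554821-102554940 (plus strand) for Chga.
Chgb: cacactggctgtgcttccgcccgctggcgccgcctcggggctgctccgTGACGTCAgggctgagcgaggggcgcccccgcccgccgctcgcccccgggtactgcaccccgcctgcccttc
Scg2: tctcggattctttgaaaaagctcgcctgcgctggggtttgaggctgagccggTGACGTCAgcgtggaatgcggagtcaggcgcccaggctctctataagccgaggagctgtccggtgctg
Pcsk1: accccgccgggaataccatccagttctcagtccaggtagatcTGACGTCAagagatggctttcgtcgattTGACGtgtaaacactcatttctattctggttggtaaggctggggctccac
Chga: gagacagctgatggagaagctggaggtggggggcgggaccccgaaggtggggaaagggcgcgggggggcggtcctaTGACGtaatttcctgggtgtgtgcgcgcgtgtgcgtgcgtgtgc
The element began 72 bases before the start in Chgb, 68 in Scg2 and 78 in Pcsk1, and the 5 letters in Chga began 44 bases before it. The start meant is that of RefSeq. In the deposited coordinates Chgb begins at 132781278, so its window lies within the gene. Scg2 and Pcsk1 begin there within their windows, at 79440120 and 75089826, and the element of Scg2 lies inside its gene. The RefSeq start of Chga was not matched in a GENCODE transcript. A match of letters is a description and shows no binding.

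Library totals ranged from 18409409 to 23323953 counts. Pou3f4 held 45, 28 and 30 counts in KO libraries and 1044, 2140 and 2233 counts in WT libraries, so it matched the label of every library. The KO libraries differed less among themselves than the WT libraries, with a median coefficient of variation over the genes tested of 7.69% in KO and 17.3% in WT. Sex-linked reads did not follow genotype: KO replicates 2 and 3 and WT replicates 1 and 2 held 9143 to 15783 Xist counts and 0 Y-linked counts, and the other 2 libraries held Y-linked counts. The label Pou3f4y/- denotes a male carrying the mutant allele on its X chromosome, so the reads of KO replicates 2 and 3 go against the sex that this label implies, while their Pou3f4 counts match it. In each genotype the library with Y-linked counts differs in sex-linked reads from the other 2, so the 3 libraries are not repeat runs of the same RNA; whether the other 2 share a source is not given. Skeletal muscle markers summed to 18.5, 717 and 29.6 CPM in KO libraries and to 5550, 126 and 9580 CPM (read counts relative to library sizes scaled by TMM) in WT libraries. Osteoblast markers summed to 42800, 37500 and 40000 CPM in KO libraries and to 24400, 24500 and 21300 CPM in WT libraries.

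The 10 genes differed widely in abundance, and levels between genes are compared per length, as TPM, which scales each count by the exon length of the gene and each library to the same sum. Cpe was the most abundant, at 811 ± 66.1 TPM in KO and 806 ± 104 TPM in WT (SD, n = 3 each), followed by Scg2 at 76.0 ± 6.41 TPM in KO and 83.6 ± 14 TPM in WT. Scg5, Chgb, Chga and Scg3 came next, between 20.5 and 24.7 TPM in KO and between 33.7 and 35.9 TPM in WT. The libraries of neighbours in the order of these 4 genes overlapped in both genotypes, so their order is not resolved. Pcsk1n stood at 12.3 ± 2.67 TPM in KO and 23.6 ± 8.07 TPM in WT, and in WT its libraries overlapped those of Chga. Pcsk2 had 4.90 ± 0.870 TPM in KO and 8.14 ± 2.83 TPM in WT, and Vgf had 2.22 ± 0.629 TPM in KO and 7.44 ± 0.968 TPM in WT. The libraries of Pcsk2 and Vgf overlapped in WT and did not in KO. Pcsk1 was the lowest, at 0.454 ± 0.127 TPM in KO and 1.45 ± 0.629 TPM in WT. Cpe alone supplied 79.9% to 82.9% of the reads of the 10 genes in KO libraries and 71.6% to 79.4% in WT libraries.

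Vgf fell 3.40-fold in the KO libraries, while the other 9 genes did not pass the threshold. Vgf (ENSMUSG00000037428, mm10 chromosome 5, 137026392 to 137033351, plus strand) encodes a secreted neuropeptide precursor first found as a transcript induced by nerve growth factor. It held 56, 76 and 34 counts in KO replicates 1 to 3 and 143, 177 and 171 counts in WT replicates 1 to 3. On the CPM scale these were 2.44, 3.31 and 1.84 in KO and 7.99, 9.23 and 8.69 in WT. Every KO library lay far below every WT library, and the 3 WT libraries lay close together. The log2 fold change was −1.76 (KO over WT, SE 0.24, adjusted p = 0.049 with edgeR's quasi-likelihood test, Benjamini-Hochberg over all genes). Of the 10 genes 1 was thus called lower and 0 higher, against 0.183% of all genes called lower and 0.396% called in either direction. The direction held in all 16 alternative analyses, with log2 fold changes from −2 to −1.58, but the call held in 7 of them. The adjusted p was 0.0501 with RLE scaling and 0.0516 with upper-quartile scaling. It was 0.357, 0.271 and 0.33 without KO replicates 1, 2 and 3 and 0.145 without WT replicate 3 (edgeR). With Xist presence as a term in the fit it was also 0.145 (edgeR).

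**Figure D1:**
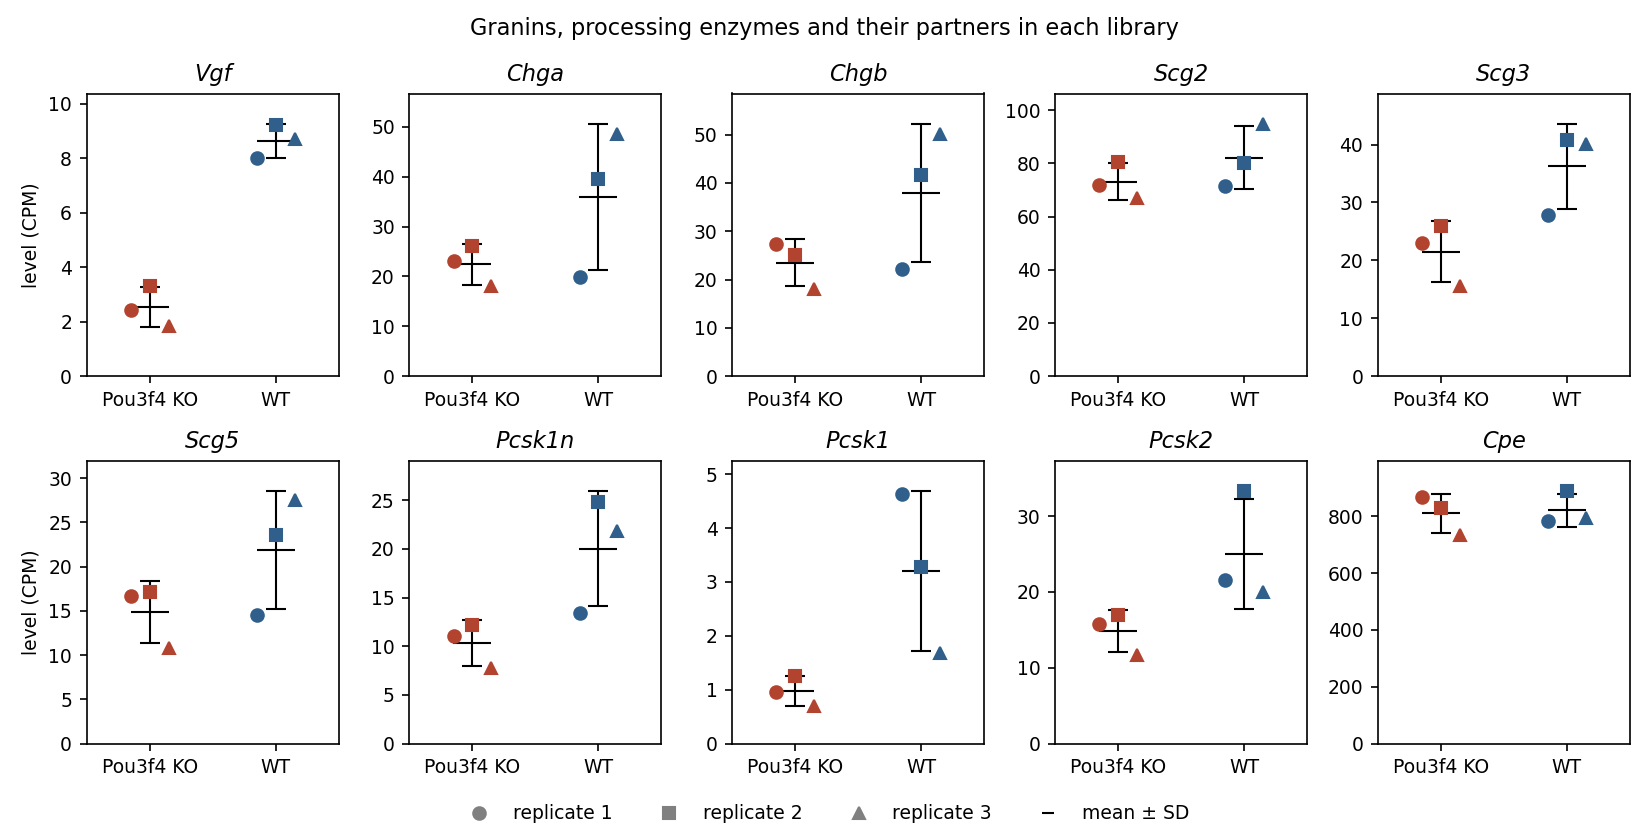
Level of each of the 10 genes in CPM (linear axes from 0) in the 3 Pou3f4 KO libraries (left of each panel) and the 3 WT libraries (right), with symbols for the replicate number and bars for the mean ± SD. Vgf stands at 1.84 to 3.31 CPM in KO and 7.99 to 9.23 CPM in WT, while Cpe and Scg2 overlap between the genotypes, and WT replicate 1 (circle) lies low in the WT group for Chga, Chgb, Scg5 and Pcsk1n.

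Chromogranin A and chromogranin B, the granins that drive the formation of dense-core vesicles in endocrine cells, overlapped between genotypes. Chga had 23.2, 26.1 and 18.1 CPM in KO libraries and 19.9, 39.5 and 48.6 CPM in WT libraries. Chgb had 27.3, 25.0 and 18.1 CPM in KO and 22.2, 41.6 and 50.03 CPM in WT. In both genes WT replicate 1 lay among the KO libraries, and WT replicates 2 and 3 lay above all of them. Their log2 fold changes were −0.68 (SE 0.32, adjusted p = 0.298, edgeR) and −0.69 (SE 0.31, adjusted p = 0.274, edgeR). The count of Chga was 0.847 to 1.05 times that of Chgb in KO libraries and 0.899 to 0.971 times in WT libraries, so both genes varied together. Without WT replicate 1 the changes were −0.98 in both genes, with adjusted p of 0.0239 for Chga and 0.0284 for Chgb (edgeR). Without WT replicate 3 they were smaller, −0.40 for Chga (adjusted p = 0.532, edgeR) and −0.44 for Chgb (adjusted p = 0.494, edgeR). The other 14 alternatives made no call in either gene.

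The secretogranins were divided. Scg2, the precursor of secretoneurin, had 71.9, 80.6 and 67.0 CPM in KO libraries and 71.4, 80.3 and 94.9 CPM in WT libraries. Its groups overlapped almost wholly, and the log2 fold change was small (−0.17, SE 0.13, edgeR adjusted p = 0.492). Scg3 had 23.1, 25.9 and 15.6 CPM in KO and 27.8, 40.8 and 40.2 CPM in WT, with every KO library below every WT library and a difference of −0.75 in log2 (SE 0.23, edgeR adjusted p = 0.168).

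The binding proteins of the convertases lay lower in KO by their means. Pcsk1n had 11.1, 12.2 and 7.73 CPM in KO libraries and 13.5, 24.8 and 21.8 CPM in WT libraries, without overlap between the groups, although WT replicate 1 was close to KO replicate 2. The log2 fold change was −0.95 (SE 0.27, adjusted p = 0.156, edgeR). Of the exon length of Pcsk1n, 6.16% is shared with Eras, which lies on the other strand; the sources used do not state whether counting was by strand. Scg5 had 16.7, 17.1 and 10.8 CPM in KO and 14.5, 23.6 and 27.5 CPM in WT, so that WT replicate 1 again lay among the KO libraries (log2 fold change −0.56, SE 0.28, adjusted p = 0.323, edgeR).

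The enzymes did not share 1 pattern. Pcsk1 held only 22, 29 and 13 counts in KO libraries and 83, 63 and 33 counts in WT libraries, or 0.958, 1.26 and 0.703 CPM in KO and 4.64, 3.28 and 1.68 CPM in WT. The groups did not overlap, but the WT libraries were spread widely, with WT replicate 1 highest and WT replicate 3 near the KO range. Its log2 fold change was −1.70 (SE 0.42, adjusted p = 0.132, edgeR), nearly the size of that of Vgf with a larger error. Pcsk2 had 15.8, 16.95 and 11.7 CPM in KO and 21.6, 33.3 and 19.98 CPM in WT, again without overlap (log2 fold change −0.75, SE 0.24, adjusted p = 0.173, edgeR). Exons of Pcsk2 overlap antisense transcripts over 3.29% and 1.25% of their length. Cpe had 868, 827 and 735 CPM in KO and 783, 887 and 792 CPM in WT, a log2 difference of −0.02 (SE 0.10, edgeR adjusted p = 0.937), whose sign turned positive in 3 of the 16 alternatives.

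Of the 10 genes, 10 had log2 fold changes below 0, with a median of −0.72, against −0.01 for all genes tested. Of all 19687 genes tested, 10050 lay below 0 and 3867 had an unadjusted p under 0.05 (edgeR). The like counts of the lists below are to be read against these. In 5 of them (Vgf, Scg3, Pcsk1n, Pcsk1 and Pcsk2) no KO library reached a WT library, as in 12.7% of all genes tested, where KO lay lower. The set was chosen on this comparison, so nothing is read from these counts. DESeq2 called 5 of the 10 lower (Vgf, Scg3, Pcsk1n, Pcsk1 and Pcsk2), against 4.61% of all genes called lower by it. Without WT replicate 1 edgeR called 5 lower (Vgf, Chga, Chgb, Scg3 and Pcsk1n), against 5.46% of all genes. It called Vgf alone without WT replicate 2 (2.37% of all genes lower), without the filter on low counts (0.141%), with at least 1 CPM in 3 libraries (0.215%) and without muscle, haemoglobin and mitochondrial genes (0.183%), as did limma-voom (0.163%). It called 0 of the 10 with RLE scaling (0.173%), upper-quartile scaling (0.147%), no scaling factor (0.0305%) and the replicate block (0.00508%). The count was also 0 without each of the KO libraries in turn and without WT replicate 3, where 0 of all genes were called and 2087 to 3364 had an unadjusted p under 0.05 (edgeR).

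**Figure D2:**
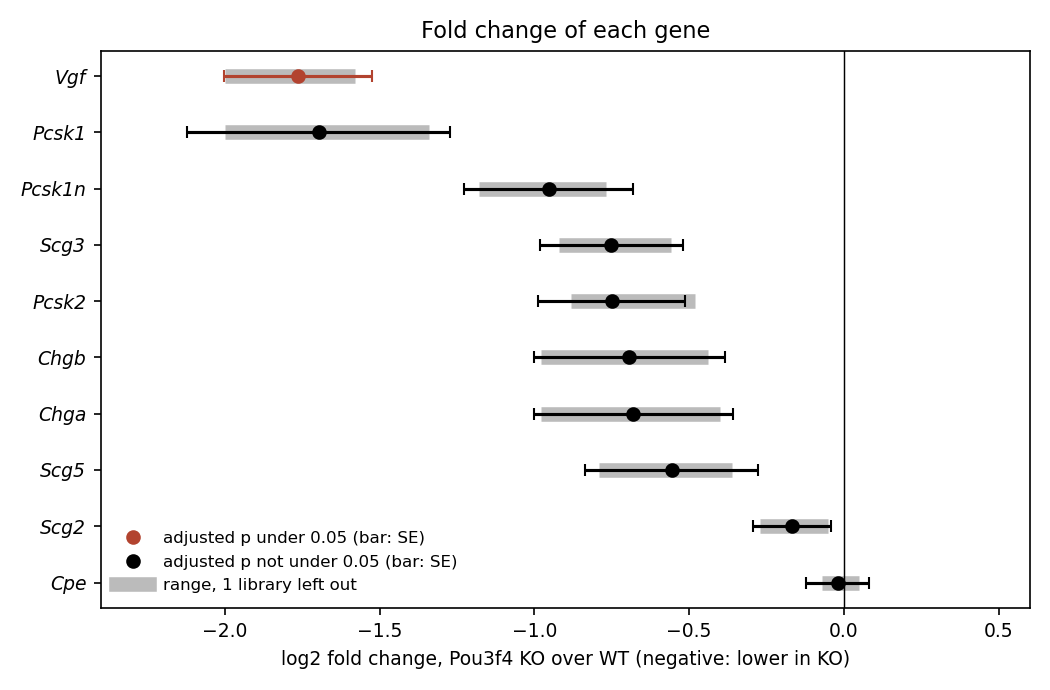
Log2 fold change of each gene, Pou3f4 KO over WT, with bars for the SE and grey bands for the range over the 6 fits that leave out 1 library each; red marks an adjusted p under 0.05. Vgf and Pcsk1 lie near −1.7, Scg2 and Cpe lie near 0, and the remaining 6 lie between −0.95 and −0.56.

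Neuron markers were lower by their means in the same libraries. Of 14 tested neuron markers 1 fell, the surface protein gene Thy1 (38.5 ± 4.96 CPM in KO and 74.2 ± 7.65 CPM in WT, SD, n = 3 each), and all 14 lay below 0, their median of −0.72 being close to that of the 10 genes. The count was 6 with DESeq2 and 7 without WT replicate 1 (edgeR). It was 0 without WT replicate 3 or any of the KO libraries, with upper-quartile scaling, without a scaling factor, with the replicate block and with the Xist term (edgeR). In 7 of the 14 every KO library lay below every WT library, as in 12.7% of all genes tested. The rest overlapped between genotypes, among them Nefl, Nefm, Nefh, Snap25, Elavl3 and Elavl4. The markers summed to 1240, 1360 and 979 CPM in KO libraries and to 1300, 2750 and 1840 CPM in WT libraries, and 0 of the 14 were at 0 counts in any library. WT replicate 1 was thus within the KO range for the summed neuron markers, as for Chga, Chgb and Scg5. The sum is weighted to the most abundant markers. By the mean log2 CPM of the 14 markers WT replicate 1 lay above every KO library, at 5.931 against 5.123 to 5.774. The most abundant, Nefm, had 317.5, 326 and 272 CPM in KO and 267.5, 683 and 458 CPM in WT; its exons overlap those of Nefl on the opposite strand over 19.2%. Medians below 0 were not limited to neural lists: they were −0.79 for chondrocyte, −1.26 for fibrocyte and −4.32 for skeletal muscle markers. Without overlap between genotypes, 2 of 5 chondrocyte, 2 of 5 fibrocyte and 0 of 9 muscle markers lay lower in KO. The fibrocyte list also had 1 marker higher in KO without overlap. Of all 19687 genes tested, 2500 lay lower and 2945 higher in this way. Medians lay above 0 for osteoblast (0.59), macrophage (0.42) and melanocyte markers (0.30). In bulk tissue fewer cells of a type and less RNA per cell cannot be told apart.

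Set against the mean log2 CPM of the neuron markers of the same library, the genes differed in their pattern. Vgf stood at −4.21, −4.00 and −4.17 in KO libraries and at −2.91, −3.50 and −3.05 in WT libraries on this log2 scale, a difference in means of −0.97 with no overlap. Vgf was therefore lower in KO also relative to these markers. Chga, Chgb, Scg3, Scg5, Pcsk1n and Pcsk2 differed by −0.13 to 0.26 between the means, with overlapping libraries. Scg2 and Cpe lay higher in KO relative to the markers, by 0.63 and 0.77, without overlap. Pcsk1 stood at −5.48, −5.33 and −5.44 in KO and at −3.69, −4.96 and −5.36 in WT, so that WT replicate 3 lay within the KO range and WT replicate 1 far above it. These differences come from the contrast on which the genes were chosen and carry no test.

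**Figure D3:**
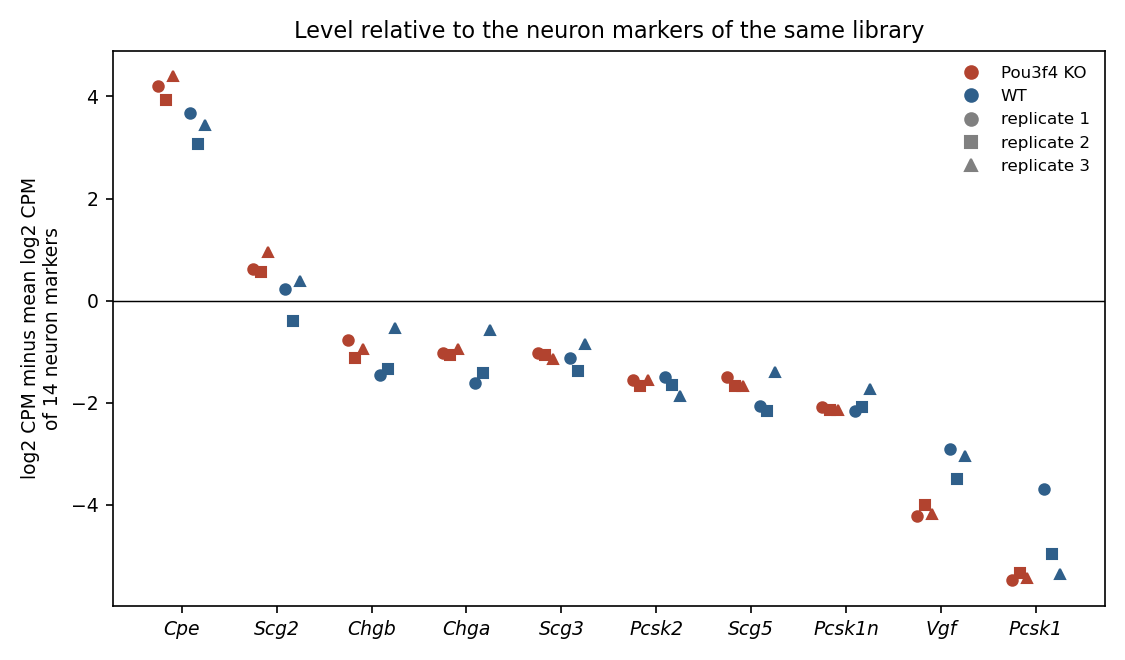
Log2 CPM of each gene minus the mean log2 CPM of 14 neuron markers in the same library, for the Pou3f4 KO libraries (red, left of each pair) and the WT libraries (blue, right), with symbols for the replicate number. Vgf lies lower in all 3 KO libraries than in any WT library, Cpe and Scg2 lie higher, and Chga, Chgb, Scg3, Scg5, Pcsk1n and Pcsk2 overlap.

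Markers of other cells that could hold granins varied among the WT libraries. The 6 sympathetic and chromaffin markers summed to 1.57, 1.74 and 0.974 CPM in KO libraries and to 33.7, 3.08 and 3.05 CPM in WT libraries. Dbh, the enzyme that makes noradrenaline, held 0, 1 and 0 counts in KO libraries and 273, 2 and 11 counts in WT libraries, and Th, the first enzyme of that pathway, held 11, 5 and 5 counts in KO and 128, 11 and 17 counts in WT. A count of 0 allows up to 3 reads, or 0.131 and 0.162 CPM in KO replicates 1 and 3, a limit of counting error only. WT replicate 1 thus held most of the sympathetic reads. It had the highest Pcsk1 level of the 6 libraries and the lowest Vgf, Chga, Chgb, Scg2, Scg3, Scg5 and Pcsk1n levels of the WT group. Of these markers 3 were tested and 0 called (edgeR, 2 at an unadjusted p under 0.05). With DESeq2 the count was 2 lower. Their part in the levels of the granins was not tested.

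The 7 pituitary markers, included because the pituitary is rich in granins, were close to absent: they summed to 0.757 to 1.70 CPM in KO libraries and to 0.894 to 3.96 CPM in WT libraries. The growth hormone gene Gh held 17, 3 and 3 counts in KO and 0, 46 and 44 counts in WT, Tshb held 10, 7 and 7 counts in KO and 10, 10 and 7 counts in WT, and Prl and Fshb were at 0 in every library but for 1 Prl read in WT replicate 3. The 8 brain tissue markers were detected in every library and summed to 222, 279 and 195 CPM in KO and to 159, 353 and 413 CPM in WT. Gfap, expressed by astrocytes and by some peripheral glia, had 58.9, 76.0 and 58.0 CPM in KO and 47.9, 120 and 107 CPM in WT, and the water channel gene Aqp4 had 91.2, 122 and 80.7 CPM in KO and 68.5, 123 and 172 CPM in WT. WT replicate 1 was the lowest of all libraries in this sum and WT replicate 3 the highest, and the WT libraries ranked as they did for Chga and Chgb. Of the 8 genes 0 were called (edgeR, 0 at an unadjusted p under 0.05), or 2 lower without WT replicate 1, and their part in the granin levels was not tested.

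Schwann cell markers were lower by their means. Of 10 tested 4 fell, among them Fa2h, Pmp22 and Prx, and all 10 lay below 0 (median −0.96); the count was 0 without each KO library in turn, without WT replicate 3, without a scaling factor, with the replicate block and with the Xist term, without WT replicate 1 it was 10, and with DESeq2 it was 7. The 11 genes of this list summed to 3220, 3620 and 3180 CPM in KO libraries and to 4570, 8290 and 7420 CPM in WT libraries. Hair cell markers had 0 of 10 called and a median of 0.06 (edgeR, 0 at an unadjusted p under 0.05), with 75.0, 69.1 and 83.0 CPM in KO and 37.9, 104 and 75.1 CPM in WT; 0 of the 10 were at 0 counts in any library, so hair cells of the labelled tissue were represented. Neither list contains any of the 10 genes.

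Other enzymes that mature prohormones showed no called gene. Of 15 tested, edgeR called 0 while 2 had an unadjusted p under 0.05, and the median log2 fold change was −0.07. The convertase gene Pcsk6 had 308, 273 and 285 CPM in KO libraries and 209, 180 and 200 CPM in WT libraries, higher in every KO library (log2 fold change 0.56, SE 0.09, adjusted p = 0.0655, edgeR). Its direction was thus the opposite of those of Pcsk1 and Pcsk2. The protease gene Ctsl, whose exons overlap a model on the opposite strand over 26.8%, had 270, 275 and 273 CPM in KO and 359, 302 and 253 CPM in WT. Pam, which amidates peptide ends and was picked after its values were seen, had 121, 108 and 120 CPM in KO and 247, 125 and 131 CPM in WT, with WT replicate 1 standing apart. DESeq2 called 1 of the 15 higher, and edgeR called 2 higher without WT replicate 1 and 1 higher without WT replicate 2.

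Genes of dense-core vesicle docking and release were mixed. Of 25 tested, edgeR called 0 while 10 had an unadjusted p under 0.05, against 3867 of all 19687 genes tested. In the list 15 lay below 0, with a median of −0.16, against 10050 of all genes tested. Vamp2, the vesicle SNARE that synaptic vesicles also use, had 84.8, 87.9 and 71.9 CPM in KO libraries and 135, 116 and 119 CPM in WT libraries, without overlap (log2 fold change −0.60, SE 0.11, adjusted p = 0.0736, edgeR). Rab2a, a GTPase needed for the maturation of these vesicles in worms, had 249, 265 and 238 CPM in KO and 274, 246 and 212 CPM in WT. Of genes picked after their values were seen, Ptprn, a membrane protein of the vesicle, had 7.36, 9.11 and 5.30 CPM in KO and 11.1, 18.6 and 15.1 CPM in WT (−1.04, SE 0.27, adjusted p = 0.133, edgeR). Slc18a1, the vesicular monoamine transporter of chromaffin cells, ran the other way, with 9.18, 8.45 and 9.41 CPM in KO and 1.73, 6.15 and 3.76 CPM in WT (1.21, SE 0.41, adjusted p = 0.185, edgeR). DESeq2 called 2 of the list higher and 3 lower, and edgeR called 4 lower without WT replicate 1 and 1 lower without WT replicate 2.

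Peptide hormone precursors, listed whether or not the enzymes above process them, were mostly scarce. Of 32 peptide precursor genes 20 were tested; edgeR called 0, 2 had an unadjusted p under 0.05, and 16 lay below 0 (median −0.42). Nucb2, the nesfatin precursor, had 38.6, 38.6 and 37.8 CPM in KO libraries and 43.4, 30.5 and 33.5 CPM in WT libraries. The enkephalin precursor Penk, overlapped on the opposite strand over 14.3% of its exons, had 20.98, 16.99 and 15.6 CPM in KO and 52.5, 17.98 and 23.1 CPM in WT. Calca, the CGRP and calcitonin gene, was picked after its values were seen. It had 3.35, 5.32 and 3.41 CPM in KO and 13.5, 27.6 and 4.58 CPM in WT (−1.92, SE 0.61, adjusted p = 0.174, edgeR), overlapping between the groups because WT replicate 3 was low. Prph, a filament gene of peripheral neurons and a neuron marker, had the same low WT replicate 3, with 6.44, 17.2 and 4.54 CPM in KO and 63.3, 70.3 and 8.95 CPM in WT. Pcsk1 likewise was lowest of the WT group there, while Vgf was not. Without WT replicate 2 edgeR called 1 precursor higher, and DESeq2 called 1 lower.

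Receptors upstream and downstream of these peptides were read beside them. Of 16 tested neurotrophin, receptor and activity-induced genes edgeR called 0 while 5 had an unadjusted p under 0.05, and the median was −0.30. Egr1, an immediate early gene, had 151, 192 and 103 CPM in KO libraries and 225, 141 and 122 CPM in WT libraries, and the BDNF receptor gene Ntrk2 had 96.1, 93.8 and 90.9 CPM in KO and 130, 106 and 115 CPM in WT. Ngfr, the shared low-affinity neurotrophin receptor, was picked after its values were seen. It had 17.3, 18.6 and 13.6 CPM in KO and 56.4, 53.2 and 30.3 CPM in WT, with no overlap (−1.50, SE 0.25, adjusted p = 0.0655, edgeR). DESeq2 called 3 of this list lower, edgeR called 1 higher and 2 lower without WT replicate 1, and 1 lower without the filter on low counts. Of 4 reported receptors of granin-derived peptides 0 were called (edgeR, 0 at an unadjusted p under 0.05). C3ar1, a receptor reported for a peptide of VGF, had 10.97, 13.2 and 14.4 CPM in KO and 9.11, 11.6 and 12.2 CPM in WT. C1qbp, also reported to bind it, had 81.1, 82.0 and 80.1 CPM in KO and 94.9, 79.2 and 86.2 CPM in WT.

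**Figure D4:**
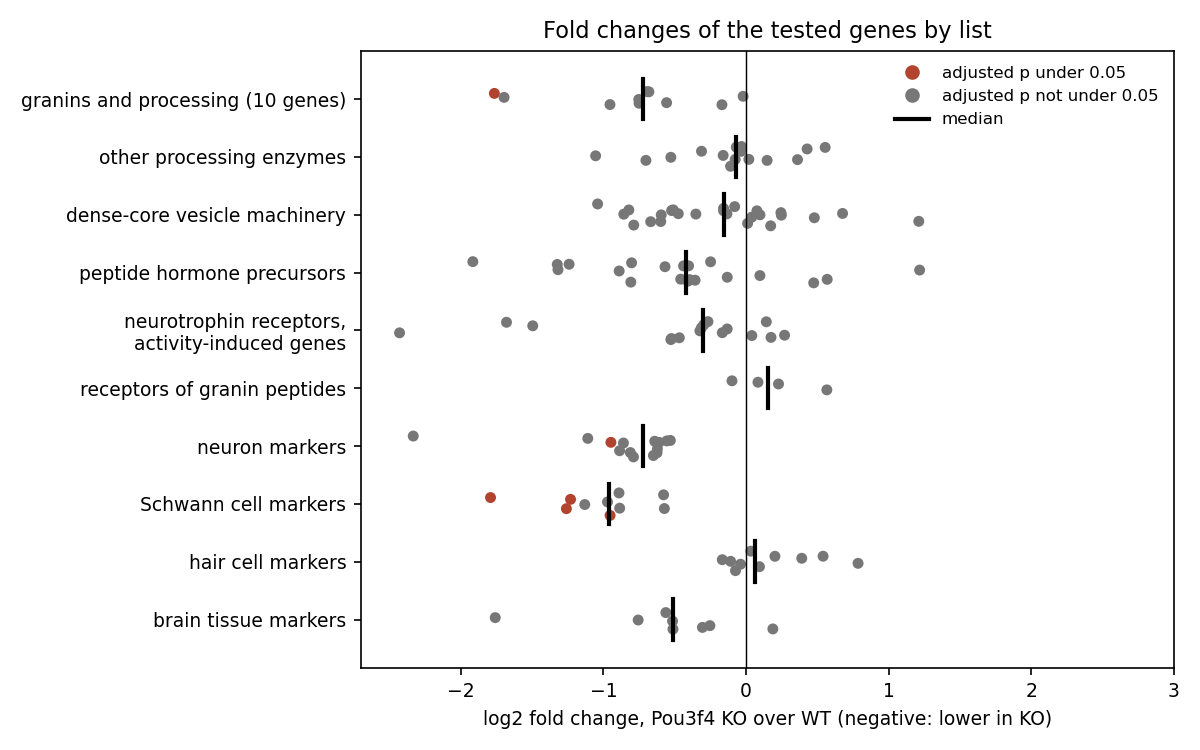
Log2 fold change, Pou3f4 KO over WT, of the tested genes of each list, 1 point a gene, with black bars for the median; red marks an adjusted p under 0.05. The median is −0.72 for the 10 genes and for the neuron markers, −0.96 for the Schwann cell markers, and between −0.42 and 0.16 for the other pathway lists.

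Across the 6 libraries, and as a description in which the points share the genotype difference, Pearson's r of log2 CPM between Chga and Chgb was 0.98. It was 0.98 between Scg5 and Chgb and 0.99 between Scg3 and Pcsk1n. Vgf was less like the chromogranins (0.68 with Chga and 0.70 with Chgb) than like Scg3 (0.91), Pcsk1n (0.90), Pcsk1 and Pcsk2 (0.87 each). Pcsk1 and Chga had an r of 0.27, the WT replicate that was highest for Pcsk1 being the lowest for Chga. Outside the 10 genes, the 8 most like Vgf over the 6 libraries were Grip1, Flywch1, Rala, Ggact, Fdft1, Rtn4, Dnaic1 and Cdh6, with r between 0.991 and 0.998. They were chosen for likeness to Vgf, whose groups do not overlap, so their separation and direction follow from that choice. All 8 had no overlap between the groups, against 12.7% of all genes tested with KO lower. Their log2 fold changes ran from −0.81 (Cdh6, a cadherin) to −0.18 (Rala, a small GTPase), smaller in size than that of Vgf. Of the 8, 0 were called and 7 had an unadjusted p under 0.05 (edgeR), which the choice also favours. Grip1, a scaffold protein of synapses, had 5.27, 5.75 and 4.65 CPM in KO libraries and 7.93, 8.13 and 8.24 CPM in WT libraries.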

How the data were processed

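Values of 3 Pou3f4 KO and 3 WT inner ear libraries were used. The deposited table held read counts per gene, whole numbers that the authors had not normalised. Per the submitters' processing notes, Trimmomatic, HISAT2, Cufflinks and HTSeq were used on build mm10; per the labels' protocols, total RNA was taken with TRIzol and libraries were made with a stranded mRNA kit. Of 55401 gene identifiers 55141 were found in GENCODE M21, whose exons gave lengths and overlaps.

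Genes were kept with filterByExpr (minimum count 10) and compared, KO against WT, with the quasi-likelihood test of edgeR 4.0.16 (TMM, genotype alone, R 4.3.3), at a Benjamini-Hochberg adjusted p threshold of 0.05 over all genes tested. The SE is the log2 fold change divided by the square root of F. The fit was tested on simulated data drawn with the same dispersion for all genes and both groups. That simulation did not include the unequal spread of the KO and WT libraries. Log2 CPM used a prior count of 2. Alternatives were scaling, filters, DESeq2 1.42.0, limma 3.58.1 (voom), the replicate number as a block, Xist presence, leaving out muscle, haemoglobin and mitochondrial genes, and leaving out each library. Library depth allowed 3 reads at a count of 0, or 0.131 to 0.168 CPM.

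The 10 genes and the lists were chosen with earlier results of these data known. Named beside them were up to 4 called genes of each pathway list, or else the 2 most abundant, up to 2 most abundant genes of marker lists, and the 8 genes most like Vgf; others are said to be picked later, and genes of marker lists that no result touches are not given. No 2 libraries of a group agreed within sampling noise. Some genes of the lists are not reported here by name.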

Additional observations from a re-analysis of the deposited data

How the results depend on the processing

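With 78 genes called as reported, 7 were called without a scaling factor, 1486 by DESeq2, 1 with the replicate number as a block and 0 with Xist presence as a term (edgeR, 3185 at an unadjusted p under 0.05); leaving out 1 library each gave 0 to 1814, the highest without WT replicate 1, with 760 without WT replicate 2 and 0 without WT replicate 3 or any KO replicate. Of the 10 granin and processing genes 1 was called as reported, 0 with RLE scaling, upper-quartile scaling, no scaling factor, the replicate block or the Xist term, 5 by DESeq2, and 0 to 5 with 1 library left out. For Vgf the adjusted p was 0.0582 without a scaling factor, 0.22 with the replicate block and 0.145 with the Xist term (edgeR), over a range of 6.38e-08 to 0.357 in the 16 alternatives. Same-numbered libraries did not deviate together (correlations of −0.131, −0.295 and −0.191 over genes). The deviations were taken from means of 3 libraries, so these values cannot exclude a pairing. The sources used do not state one. The causes were not tested. The 9 genes other than Cpe kept fold changes below 0 in all 16 alternatives. Of the called genes 46.2% were lower as reported, against 38.2% with upper-quartile scaling and 85.7% of 7 without a scaling factor. Depth limits Pcsk1 and Vgf most, with 13 and 34 counts in KO replicate 3.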
